A study of Homo sapiens with 6 samples.

Results

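The 8 human genes that write, read and erase methyl groups on cytosine were followed in RMS13 cells after knockdown of GLI1. They are UHRF1 and UHRF2, DNMT1, DNMT3A and DNMT3B, and TET1, TET2 and TET3, taken by symbol from a table of 25702 genes, and all 8 were found. RMS13 is an established human rhabdomyosarcoma line, a tumour with features of skeletal muscle, and GLI1 is the zinc finger transcription factor at the end of the Hedgehog pathway. Group siGLI1 had 3 libraries from cells given a small interfering RNA (siRNA) against GLI1, and group siNT2 had 3 from cells given a non-targeting siRNA. Both were cultured alike for 72 h, and the sequence of either siRNA is not given in the sources used here. The labels leave unsaid whether each replicate was a culture of its own. All p-values therefore reflect variation among 6 libraries, part of which may be technical.

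Recovered reads per library ranged from 13784642 to 15477041 in siGLI1 and from 13673977 to 18947614 in siNT2. GLI1 itself had normalised read counts of 579.9, 905.8 and 1274.1 in siGLI1 cells, against 11962.5, 17836.9 and 12774.1 in siNT2 cells, or 6.48% of the siNT2 mean. The muscle markers MYOD1, MYOG and DES were high in both groups, while MYF5 and MYF6 had at most 2.0 in any library. Of 6 muscle markers tested, 2 rose, DES by 0.97 (adjusted p = 0.0153) and CHRNA1 by 0.62 (adjusted p = 0.0112) on the log2 scale, and the list summed to between 50006 and 71457 in siGLI1 libraries and between 44981 and 60458 in siNT2 libraries. Markers of blood, epithelium and nerve cells had summed counts of at most 76.0, 49.1 and 656.8 in siGLI1 libraries and 78.1, 65.4 and 571.0 in siNT2 libraries. None of them was called, but only 1 of 5 blood, 1 of 4 epithelial and 3 of 4 nerve cell markers were high enough to be tested. The epithelial marker tested, EPCAM, had groups that did not overlap (log2 fold change -0.63, limma adjusted p = 0.0994). Of the 3 endothelial markers, PECAM1 was higher (86.4, 81.8 and 90.9 in siGLI1 cells, against 13.2, 14.2 and 5.6 in siNT2 cells), while CDH5 and VWF had at most 9.7 in any library. The part of these shifts in the results below was not tested.

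Cytosine methylation in vertebrates falls mainly on CpG pairs and is linked to gene silencing. DNMT3A and DNMT3B place new methyl groups, and DNMT1 copies the pattern onto the new strand after DNA replication. UHRF1 binds hemimethylated CpG pairs behind the replication fork and brings DNMT1 to them, and UHRF2 is its close relative, which also binds methylated and hydroxymethylated DNA. TET1, TET2 and TET3 are dioxygenases that oxidise 5-methylcytosine, the first step of its active removal. Tumour cells often carry altered methylation, and DNMT and TET genes are often misregulated or mutated in tumours. The files measured RNA alone, and methylation itself was not measured.

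Of the 8 genes, 3 fell in siGLI1 cells and 0 rose. They were UHRF1, DNMT3B and UHRF2, to 34.9%, 38.0% and 69.1% of their siNT2 means. Of 15622 genes tested, 15.2% were called at an adjusted p under 0.05, 8.0% lower and 7.21% higher. Values are normalised read counts as mean ± SD. Fold changes are given as log2(value + 1) in siGLI1 minus that in siNT2, with limma's adjusted p-values after Benjamini-Hochberg adjustment over all genes tested. The median log2 fold change was -0.29 over the 8 members and -0.01 over all genes tested. In 4 members every siGLI1 library was below every siNT2 library, a pattern seen in 18.8% of all genes tested.

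**Figure D1:**
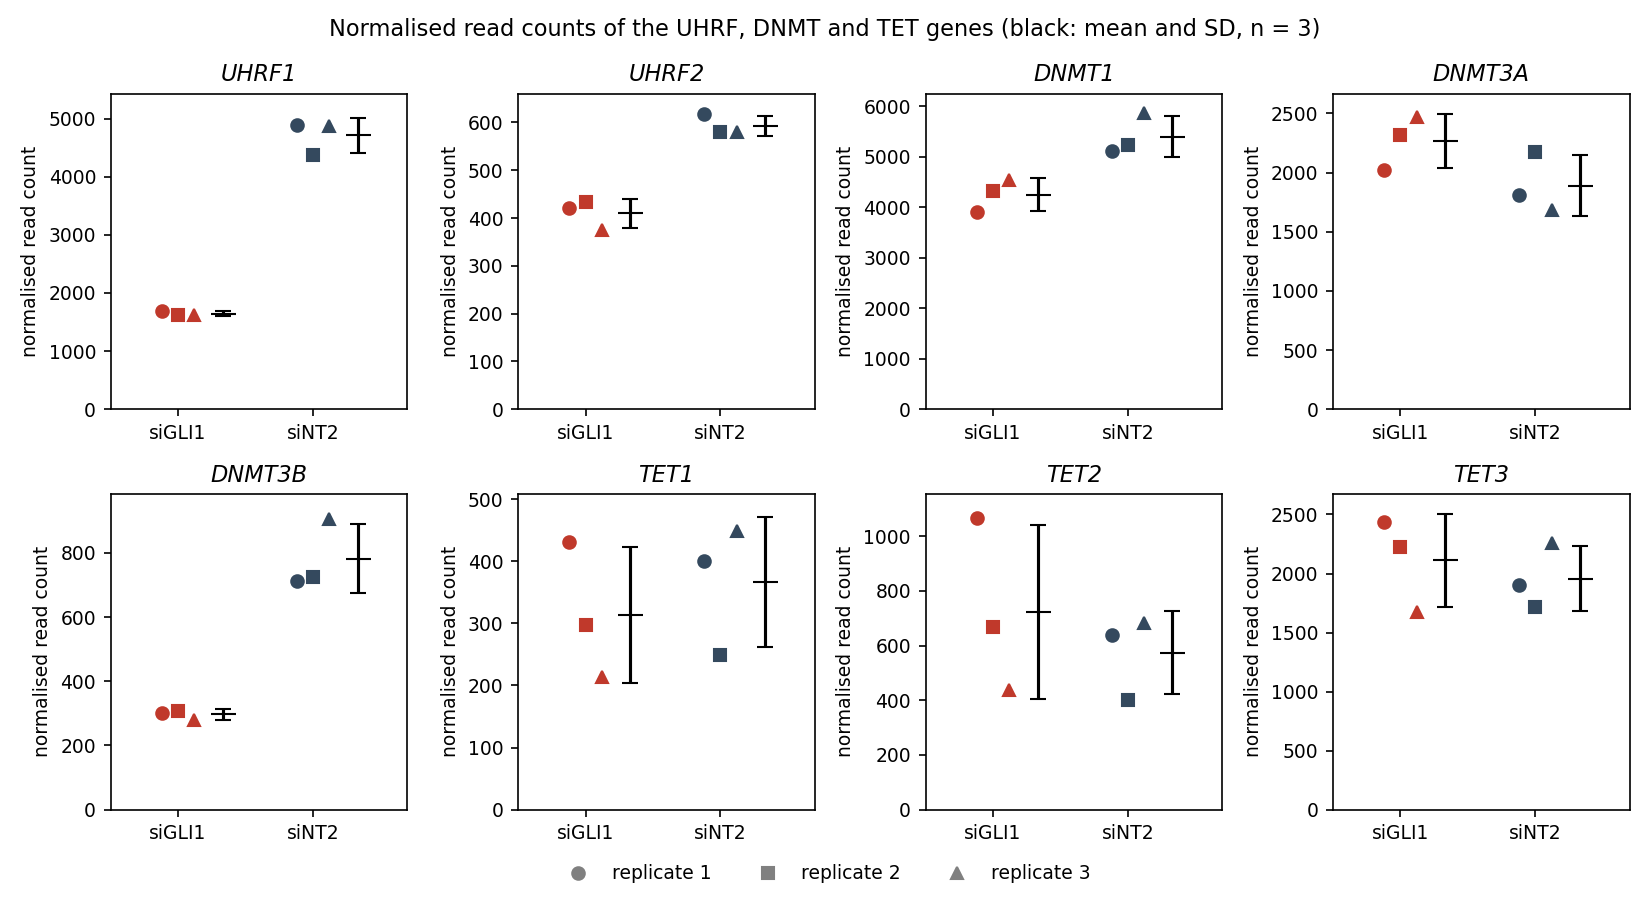
Normalised read counts (vertical axes, from 0) of the 8 genes in each library, siGLI1 at the left and siNT2 at the right of every panel. Marker shapes give the replicate number, and black bars the mean and SD of 3 libraries. UHRF1, UHRF2, DNMT1 and DNMT3B show groups that do not overlap, while the other 4 panels overlap.

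UHRF1 (Entrez gene 29128, chromosome 19) had the lowest fold change of the 8. Its normalised read count was 1695.5, 1618.3 and 1613.8 in siGLI1 cells, against 4887.5, 4372.3 and 4874.7 in siNT2 cells. The 3 siGLI1 libraries were close to each other and far below all siNT2 libraries. The siGLI1 mean was 1643 ± 45.9 and the siNT2 mean 4712 ± 294 (SD, n = 3 each). The log2 fold change was -1.52 (standard error 0.12, 95% interval -1.79 to -1.25, adjusted p = 0.000514), which placed it 226th from the lowest among the 15622 genes. The call was kept in all 14 alternative fits, with log2 fold changes between -1.57 and -1.39.

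UHRF2 (Entrez gene 115426, chromosome 9) had 420.1, 433.5 and 375.3 in siGLI1 cells, against 617.1, 581.1 and 579.7 in siNT2 cells. The groups did not overlap, and their distance was several times the spread within either. Means were 409.6 ± 30.5 in siGLI1 cells and 592.7 ± 21.2 in siNT2 cells (SD, n = 3 each), which is -0.53 on the log2 scale (95% interval -0.84 to -0.23, adjusted p = 0.0345). With any 1 of the 6 libraries left out the gene no longer passed, at adjusted p-values of 0.0522 to 0.149, nor with the replicate number as a block (adjusted p = 0.141). The call was also made by edgeR (adjusted p = 0.0368) and DESeq2 (adjusted p = 0.00642). It was made by limma after the GC correction too, without the block (adjusted p = 0.0032) or with it (adjusted p = 0.0143).

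DNMT3B (Entrez gene 1789, chromosome 20) was the second gene with a large decrease. It had 302.4, 308.7 and 278.5 in siGLI1 cells, against 712.7, 726.2 and 905.1 in siNT2 cells. No siGLI1 library came near the lowest siNT2 library. Means were 296.5 ± 15.9 in siGLI1 cells and 781.3 ± 107 in siNT2 cells (SD, n = 3 each). The log2 fold change was -1.39 (standard error 0.15, 95% interval -1.74 to -1.04, adjusted p = 0.00176), and all 14 alternative fits called it lower, between -1.45 and -1.28.

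DNMT3A (Entrez gene 1788, chromosome 2), the other de novo enzyme, did not pass the test. It had 2020.6, 2314.5 and 2472.1 in siGLI1 cells, against 1809.6, 2177.5 and 1685.0 in siNT2 cells. The highest siNT2 library lay above the lowest siGLI1 library, so the groups overlapped. Its log2 fold change was 0.27 (95% interval -0.08 to 0.61, adjusted p = 0.264). Once the trend with GC content was removed from every library it was called higher, at 0.36 (adjusted p = 0.0143).

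DNMT1 (Entrez gene 1786, chromosome 19), the maintenance enzyme, had 3897.5, 4327.5 and 4529.3 in siGLI1 cells, against 5108.3, 5230.3 and 5856.3 in siNT2 cells. The groups did not overlap, with every siGLI1 library below every siNT2 library. Means were 4251 ± 323 in siGLI1 cells and 5398 ± 401 in siNT2 cells (SD, n = 3 each), a level of 78.8%. Its change of -0.34 on the log2 scale (95% interval -0.63 to -0.06, adjusted p = 0.101) missed the threshold, as it did in all 14 alternative fits.

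The 300 bases around 1 annotated start per gene (250 before, 50 after) were taken for all 8 genes from RefSeq on GRCh38.p14. That is not the hg19 build the submitters name. The E2F form TTTNNCGC, where N is any base, was searched on both strands, together with the GLI form GACCACCCA. E2F proteins are transcription factors that act on genes of DNA replication. The E2F form occurred in 2 members, with 2 copies in UHRF1 and 1 in DNMT1, against 10% of tested genes' promoters. The GLI form was in none of the 8 windows and in 0.254% of tested genes' promoters. The letters CCAAT, also searched on both strands, occurred once each in UHRF1 and DNMT3B, and in 37% of tested genes' promoters. The windows of the 2 genes with the largest decreases and of DNMT1 are shown, with the E2F form in capitals, at chr19:4909251-4909550 on the plus strand (UHRF1), chr20:32779602-32779901 on the plus strand (DNMT3B) and chr19:10194904-10195203 on the minus strand (DNMT1).
UHRF1: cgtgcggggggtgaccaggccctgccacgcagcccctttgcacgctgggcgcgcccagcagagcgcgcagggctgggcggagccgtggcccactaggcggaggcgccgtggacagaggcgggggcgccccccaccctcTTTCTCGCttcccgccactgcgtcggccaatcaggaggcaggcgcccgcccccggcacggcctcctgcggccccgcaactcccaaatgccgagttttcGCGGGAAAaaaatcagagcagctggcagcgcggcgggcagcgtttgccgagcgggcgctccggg
DNMT3B: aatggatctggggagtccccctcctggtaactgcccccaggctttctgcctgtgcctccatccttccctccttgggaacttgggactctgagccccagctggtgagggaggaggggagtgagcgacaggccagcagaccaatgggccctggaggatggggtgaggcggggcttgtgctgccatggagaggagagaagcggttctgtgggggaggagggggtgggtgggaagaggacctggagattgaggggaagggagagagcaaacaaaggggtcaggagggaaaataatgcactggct
DNMT1: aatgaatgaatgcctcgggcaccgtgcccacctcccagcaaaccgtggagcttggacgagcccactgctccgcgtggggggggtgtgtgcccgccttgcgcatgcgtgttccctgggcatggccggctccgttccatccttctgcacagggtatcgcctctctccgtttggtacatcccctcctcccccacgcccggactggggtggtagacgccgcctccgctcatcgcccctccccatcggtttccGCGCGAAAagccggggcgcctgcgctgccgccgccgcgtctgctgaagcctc

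In UHRF1 the 2 matches began 112 and 14 bases before the start, and in DNMT1 the match began 2 bases before it. DNMT3B, which fell about as much as UHRF1, had neither form in its window. No other start of the gene was searched, so its window may not cover its main promoter. Of tested genes' promoters, 96.7% had at least as many CpG pairs as this window. The windows also differed in CpG pairs, with 36 in UHRF1, 30 in DNMT1, 26 in UHRF2 and DNMT3A, 45 in TET3, 13 in TET2, 10 in TET1 and 3 in DNMT3B, against a median of 26 over tested genes. A match of letters is a description of the window and not a bound site.

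None of the 3 TET genes passed the test. TET1 (Entrez gene 80312, chromosome 10) had 430.9, 297.5 and 213.3 in siGLI1 cells, against 400.8, 248.5 and 449.0 in siNT2 cells. TET2 (Entrez gene 54790, chromosome 4) had 1065.9, 666.6 and 438.5 in siGLI1 cells, against 639.1, 400.6 and 683.4 in siNT2 cells. TET3 (Entrez gene 200424, chromosome 2) had 2438.5, 2221.5 and 1676.0 in siGLI1 cells, against 1900.8, 1715.0 and 2257.5 in siNT2 cells. The groups overlapped in all 3 genes. Replicate 1 was the highest and replicate 3 the lowest siGLI1 library for each of the 3, and replicate 2 was the lowest siNT2 library for each. The log2 fold changes were -0.24 for TET1 (95% interval -0.95 to 0.48, adjusted p = 0.64), 0.28 for TET2 (-0.51 to 1.07, adjusted p = 0.615) and 0.10 for TET3 (-0.32 to 0.52, adjusted p = 0.74). These intervals are wide, and each of the 3 changed sign when 1 library was left out.

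The libraries of each group also differed along GC content. Across genes, which are not independent replicates, the rank correlation of GC content with a library's deviation from its group mean ran from -0.69 to 0.742 in siGLI1 and from -0.595 to 0.697 in siNT2. TET1 and TET2 had the lowest GC content of the 8, 41.04% and 41.7%, and the others lay between 45.5% and 57.4%. With the GC trend removed, the SD of TET1 on the log2 scale was 0.26 in siGLI1 and 0.24 in siNT2 libraries, against 0.51 and 0.45 in the values as deposited. For TET2 it was 0.41 in siGLI1 and 0.22 in siNT2 libraries, against 0.64 and 0.42 as deposited. TET3, with a GC content of 57.3%, went the other way. Its SD was 0.47 in siGLI1 and 0.35 in siNT2 libraries, against 0.28 and 0.20 as deposited. For UHRF1 the same step gave an SD of 0.23 in siGLI1 and 0.26 in siNT2 libraries, against 0.04 and 0.09 as deposited. DNMT3B also widened, to 0.17 and 0.24 from 0.08 and 0.19. DNMT3A, with a GC content of 55.4%, narrowed to 0.05 in siGLI1 and 0.08 in siNT2 libraries, against 0.15 and 0.19 as deposited. UHRF2 and DNMT1 narrowed in siGLI1 and widened in siNT2 libraries. The part of GC content in the spread of single genes was not tested.

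**Figure D2:**
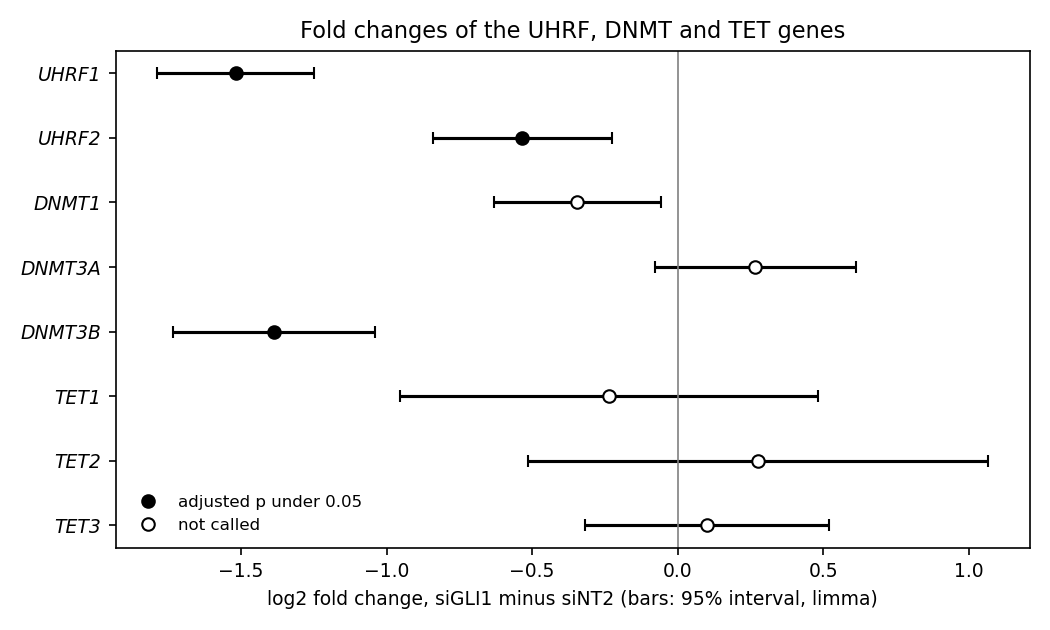
Log2 fold change of each gene, siGLI1 minus siNT2 (horizontal axis), with its 95% interval from limma. Filled points passed an adjusted p of 0.05. UHRF1 and DNMT3B sit at -1.52 and -1.39, UHRF2 at -0.53, and the intervals of DNMT3A and the TET genes cross 0.

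Whether members responded differently was tested on their ratios within each library, which cancel what a library does to both genes alike. A library's trend with GC content is not cancelled where the 2 genes differ in it, as UHRF1 (57.4%) and UHRF2 (45.5%) do. Of the 6 pairs compared, 5 had groups that did not overlap. Among single genes tested, 36.2% had groups that did not overlap in either direction, and the share over other gene pairs was not computed. The pairs share members, and those with UHRF1 or DNMT3B partly restate the differences of these genes alone. The smallest p that 3 against 3 libraries allow is 0.1, so no pair could pass 0.05. The number of DNMT3A reads per DNMT3B read was 6.68, 7.50 and 8.88 in siGLI1 libraries, against 2.54, 3.00 and 1.86 in siNT2 libraries. Every siGLI1 library was above every siNT2 library, a difference of 1.65 in the log2 ratio (two-sided exact permutation p = 0.1, adjusted p = 0.12 over the 6 pairs). There were 4.04, 3.73 and 4.30 UHRF1 reads per UHRF2 read in siGLI1 libraries, against 7.92, 7.52 and 8.41 in siNT2 libraries, a log2 difference of -0.98 with the same p-values. UHRF1 was thus lower against its relative in all 3 siGLI1 libraries.

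The UHRF1 to DNMT1 ratio was 0.435, 0.374 and 0.356 in siGLI1 libraries, against 0.957, 0.836 and 0.832 in siNT2 libraries (log2 difference -1.17, exact permutation p = 0.1). The recruiting protein's transcript was therefore lower relative to that of the enzyme it recruits, again with no overlap. The DNMT1 to DNMT3A ratio differed by -0.61 on the log2 scale, with 1.93, 1.87 and 1.83 in siGLI1 libraries, against 2.82, 2.40 and 3.48 in siNT2 libraries (exact permutation p = 0.1). TET1 and TET2, whose levels varied widely, kept a narrow ratio to each other. It was 0.404, 0.446 and 0.486 in siGLI1 libraries, against 0.627, 0.620 and 0.657 in siNT2 libraries, a log2 difference of -0.51 (exact permutation p = 0.1). TET1 and TET2 also have similar GC contents (41.04% and 41.7%), and the part of GC content in this narrow ratio was not tested. The TET3 to TET2 ratio overlapped between groups (log2 difference -0.18, exact permutation p = 0.7).

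**Figure D3:**
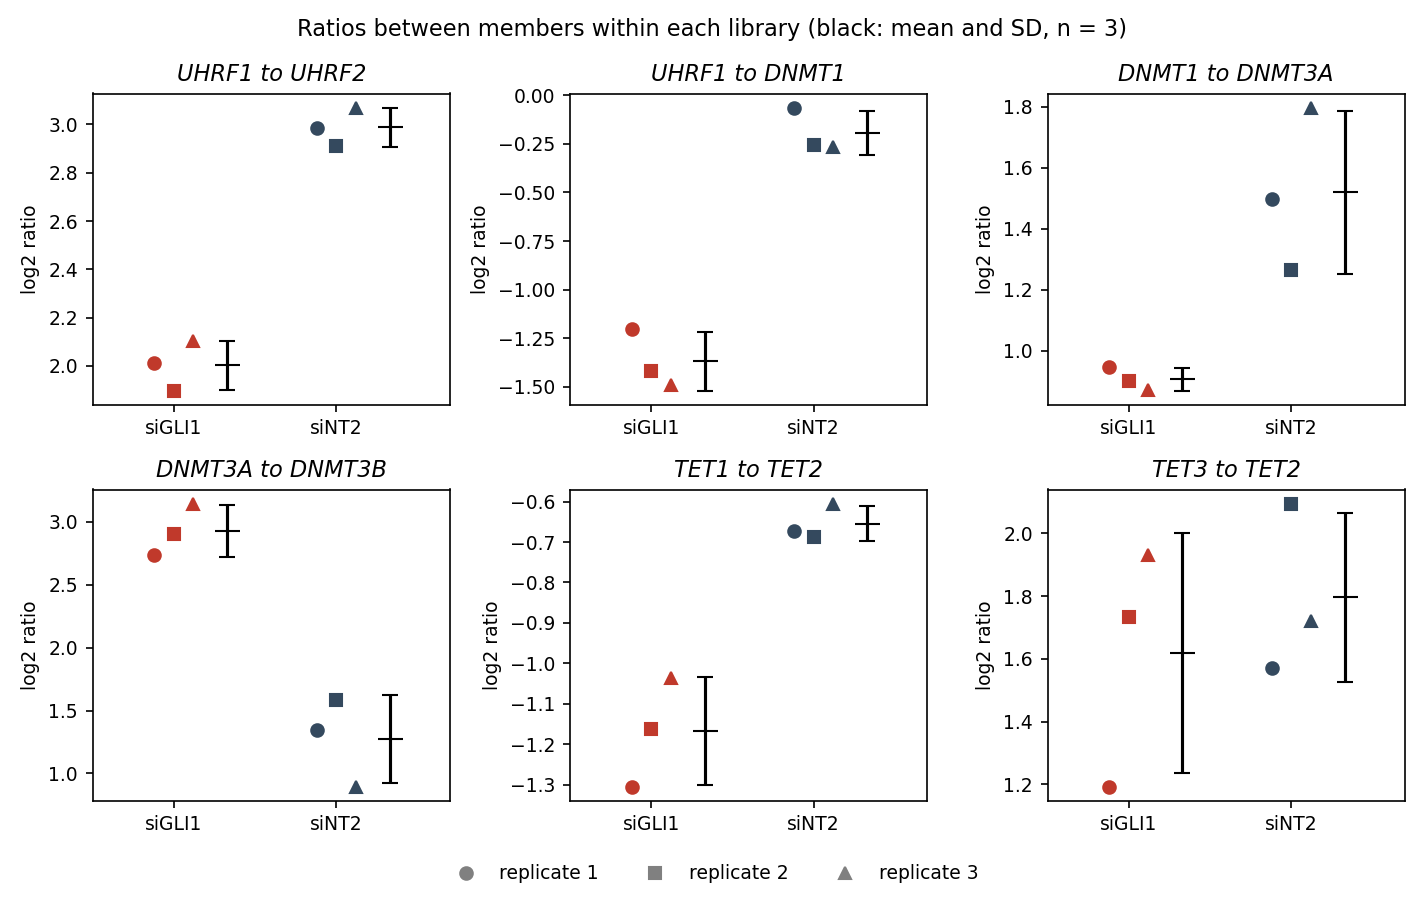
Log2 ratio between pairs of genes within each library (vertical axes, each with its own range), siGLI1 at the left and siNT2 at the right. Shapes give the replicate number, and black bars the mean and SD of 3 libraries. The DNMT3A to DNMT3B ratio is higher in every siGLI1 library, 4 other ratios are lower in every siGLI1 library, and TET3 to TET2 overlaps.

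Levels were compared between genes as normalised read counts per kilobase of the median transcript. In siGLI1 cells the order was DNMT1 (801.1 ± 60.8), DNMT3A (632.2 ± 63.8), UHRF1 (460.9 ± 12.9), TET3 (255.0 ± 47.4), UHRF2 (192.6 ± 14.3), TET2 (74.8 ± 32.8), DNMT3B (71.6 ± 3.85) and TET1 (33.8 ± 11.8). In siNT2 cells it was UHRF1 (1322 ± 82.5), DNMT1 (1017 ± 75.6), DNMT3A (526.8 ± 71.4), UHRF2 (278.6 ± 9.96), TET3 (236.4 ± 33.3), DNMT3B (188.6 ± 25.9), TET2 (59.3 ± 15.7) and TET1 (39.4 ± 11.3), as SD with n = 3. UHRF1 ranked number 3 in siGLI1 cells and number 1 in siNT2 cells. Neighbours whose libraries overlapped were TET3 with UHRF2 and TET2 with DNMT3B in siGLI1 cells, and UHRF2 with TET3, TET3 with DNMT3B and TET2 with TET1 in siNT2 cells. With the longest transcript as the length, UHRF1 ranked number 2 in siGLI1 cells, above DNMT3A, and its libraries overlapped those of DNMT1 in siNT2 cells. DNMT3A then stood at 238.8 in siGLI1 cells and overlapped TET3. In siNT2 cells DNMT3B and TET3 then ranked above UHRF2, and neighbours from DNMT3A down to UHRF2 overlapped. The order of these middle genes thus depended on the length used.

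Decreases in these libraries were more frequent among genes with the heptamer GCACCTC in the 3' untranslated region (3' UTR), a pattern known from an earlier look at the same table. In each gene only the longest 3' UTR was searched. Of 1244 tested genes with a copy 17.9% were called lower, and of 11923 without one 7.05%. These shares come from the same table, so they are no separate support for the pattern, and they were not adjusted for 3' UTR length. No member that fell carried the heptamer there, as held for most tested genes. DNMT3A and TET3 carried 1 copy each and had log2 fold changes of 0.27 and 0.10. Their 3' UTRs were the longest of the 8, with 6424 and 6000 bases. The part of the heptamer in the decreases was not tested. Both sites are shown because they are the only copies in the searched 3' UTRs of the 8 genes. The heptamer is in capitals, at chr2:25232218-25232244 on the minus strand (DNMT3A) and chr2:74103039-74103065 on the plus strand (TET3) of GRCh38.
DNMT3A: aggggggatgGCACCTCctgggactgg
TET3: tcactaggcaGCACCTCacgctggagc

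Genes that work with the maintenance enzymes fell in part. Of 11 tested maintenance partners, 4 fell and 0 rose, with a median log2 fold change of -0.36. Over all genes tested, 8.0% were called lower and 7.21% higher, the shares to set beside this and the later list counts. The lists were chosen with earlier results of these data known. PCNA, the clamp of the replication fork, had 1260.3, 1298.4 and 1284.9 in siGLI1 cells, against 2162.1, 2014.2 and 2008.7 in siNT2 cells. It was tightly grouped and did not overlap (log2 fold change -0.69, adjusted p = 0.00879). CDCA7, which brings the remodeller HELLS to chromatin, fell by 0.80 (adjusted p = 0.0143), HELLS itself by 0.76 (adjusted p = 0.0415) and SUV39H1, a histone H3 lysine 9 methyltransferase, by 0.82 (adjusted p = 0.0159). Leaving out 1 library at a time, HELLS missed the threshold in 4 of 6 fits and PCNA, CDCA7 and SUV39H1 in 2 each. The count of 4 became 0 with the replicate block or without siNT2 replicate 1, 1 without siGLI1 replicate 2 and 2 without siNT2 replicate 3. After the GC correction it became 7, or 6 with the block added, and the median -0.49. USP7, a deubiquitinase that stabilises DNMT1 and UHRF1, stood at 0.18 (adjusted p = 0.353).

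UHRF1 and DNMT3B were also set against genes of DNA replication, which acts together with maintenance methylation. Of 28 replication genes tested, 10 fell and 0 rose, with a median of -0.43 and a lowest value of -1.19. The list also held regulators, of which the transcription factor genes E2F1 and E2F2 and the cyclin gene CCNE1 were among the 10. The cyclin gene CCNE2 was not called. PCNA and CHAF1A were on the maintenance list too, and the fall of PCNA counts in both lists. Over all genes tested, 8.0% were called lower and 7.21% higher. The count of 10 became 2 with the replicate block, 2 without siGLI1 replicate 2 or siNT2 replicate 1, 4 without siNT2 replicate 3 and 6 without siGLI1 replicate 1. It became 16 after the GC correction, or 14 with the block added. Of 20 mitosis genes 1 rose (CCNB2, a cyclin of mitosis, by 0.60, adjusted p = 0.0128) and 0 fell, and their median was 0.16. After the GC correction 2 were called higher and 3 lower, and the median was -0.013. CCNB2 missed the threshold with the replicate block and without siGLI1 replicate 2 or siNT2 replicate 1. The largest decrease was that of CLSPN, a checkpoint mediator, with 1579 ± 116 in siGLI1 cells and 3600 ± 144 in siNT2 cells (SD, n = 3 each; adjusted p = 0.00137). RRM2, a ribonucleotide reductase subunit, fell by 0.77 (adjusted p = 0.00633) and the helicase subunit gene MCM3 by 0.67 (adjusted p = 0.0102). Against the mean of the 28 genes in the same library, the log2 level of UHRF1 was 0.23, 0.14 and 0.08 in siGLI1 libraries, against 1.25, 1.14 and 1.26 in siNT2 libraries. UHRF1 stood lower relative to the list in every siGLI1 library, by 1.06 (exact permutation p = 0.1). DNMT3B did so as well, by 0.93, with -2.25, -2.24 and -2.45 in siGLI1 libraries, against -1.53, -1.45 and -1.17 in siNT2 libraries (exact permutation p = 0.1). These 2 ratios were chosen after the values were seen. In bulk RNA, fewer cells in DNA replication and less RNA per replicating cell cannot be told apart.

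Of 13 tested partners of demethylation, 3 rose and 2 fell, with a median of -0.11. Those that fell were APEX1 and PARP1, and those that rose were the 3 GADD45 genes. APEX1, the endonuclease that cuts the abasic site left by base removal, had 1756.0, 1601.0 and 1798.5 in siGLI1 cells, against 3379.9, 3086.2 and 3626.7 in siNT2 cells. That is 51.1% of the siNT2 mean, with no overlap (log2 fold change -0.97, adjusted p = 0.00337). PARP1, a sensor of DNA strand breaks, fell by 0.85 (adjusted p = 0.00463). GADD45B, one of the GADD45 stress proteins that have been linked to DNA demethylation, had 128.5, 143.1 and 201.5 in siGLI1 cells, against 29.6, 38.5 and 30.3 in siNT2 cells. It rose by 2.21 (adjusted p = 0.00154), GADD45A by 1.0 (adjusted p = 0.00373) and GADD45G by 1.06 (adjusted p = 0.0358), the last named after its values were seen and below the threshold in 3 of 6 leave-one-out fits. TDG, the glycosylase that removes oxidised methylcytosine, stood at 0.10 (adjusted p = 0.749). IDH1 and IDH2, which make the 2-oxoglutarate that TET enzymes use, were at -0.19 (adjusted p = 0.421) and -0.11 (adjusted p = 0.672), and OGT, a binding partner of TET proteins, was at -0.14 (adjusted p = 0.657). CXXC4 and CXXC5, CXXC proteins that interact with TET2, were at 0.45 (adjusted p = 0.377) and 0.44 (adjusted p = 0.0735).

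Of 8 tested readers of methylated CpG, 1 rose and 0 fell, with a median of 0.09. After the GC correction 3 were called higher and 1 lower, and their median was 0.24. ZBTB4, a zinc finger protein that binds methylated DNA, had 656.6, 789.2 and 717.0 in siGLI1 cells, against 483.2, 501.0 and 503.2 in siNT2 cells. The groups did not overlap (log2 fold change 0.54, adjusted p = 0.0347), but it missed the threshold in 5 of 6 leave-one-out fits and with the replicate block. MBD4, a reader that is also a glycosylase, was at -0.20 (adjusted p = 0.43). Of 5 tested partners of de novo methylation, 1 fell and 0 rose. The gene that fell was NSD2, a histone H3 lysine 36 methyltransferase, with 5627 ± 241 in siGLI1 cells and 8329 ± 318 in siNT2 cells (SD, n = 3 each; log2 fold change -0.57, adjusted p = 0.015). It missed the threshold with the replicate block and without siGLI1 replicate 2, siNT2 replicate 1 or siNT2 replicate 3. After the GC correction 2 of the 5 were called lower and 1 higher. DNMT3L, the catalytically inactive cofactor of DNMT3 enzymes, had no read in any library.

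The methyl donor cycle, which supplies S-adenosylmethionine, changed in single genes. Of 13 tested, 1 rose and 1 fell, with a median of -0.02. SHMT1, the cytosolic serine hydroxymethyltransferase that feeds the folate pool, had 649.0, 659.4 and 691.4 in siGLI1 cells, against 1458.2, 1518.3 and 1507.1 in siNT2 cells. The spread within groups was small beside the gap (log2 fold change -1.16, adjusted p = 0.00138). ADK, adenosine kinase, rose by 0.64 (adjusted p = 0.0301), but missed the threshold in 5 of 6 leave-one-out fits. MAT2A, which makes S-adenosylmethionine, was at -0.13 (adjusted p = 0.56) and AHCY, which clears its product, at -0.27 (adjusted p = 0.159).

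Germline genes, many of which are kept silent by promoter methylation in body cells, were mostly near 0. Of 16 listed, 4 had no read in any library and 4 reached the mean of 10 needed for the test. TDRD1, a tudor protein of the piRNA pathway, had 77.8, 65.4 and 46.4 in siGLI1 cells, against 20.9, 12.2 and 15.9 in siNT2 cells. It rose by 1.89 (adjusted p = 0.00651). CTCFL, the germline relative of CTCF, had 5.4, 3.1 and 4.0 in siGLI1 cells, against 34.0, 26.4 and 31.1 in siNT2 cells. It fell by 2.63 (adjusted p = 0.00195), with siGLI1 values close to the floor of 3 reads, and the value was -1.66 with a pseudocount of 8. CTCFL reached the mean of 10 only through its siNT2 libraries (mean 30.5, against 4.14 in siGLI1). With such siGLI1 values it could enter the test only as a lower gene. The 2 called genes moved in opposite directions, with this limit for CTCFL.

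**Figure D4:**
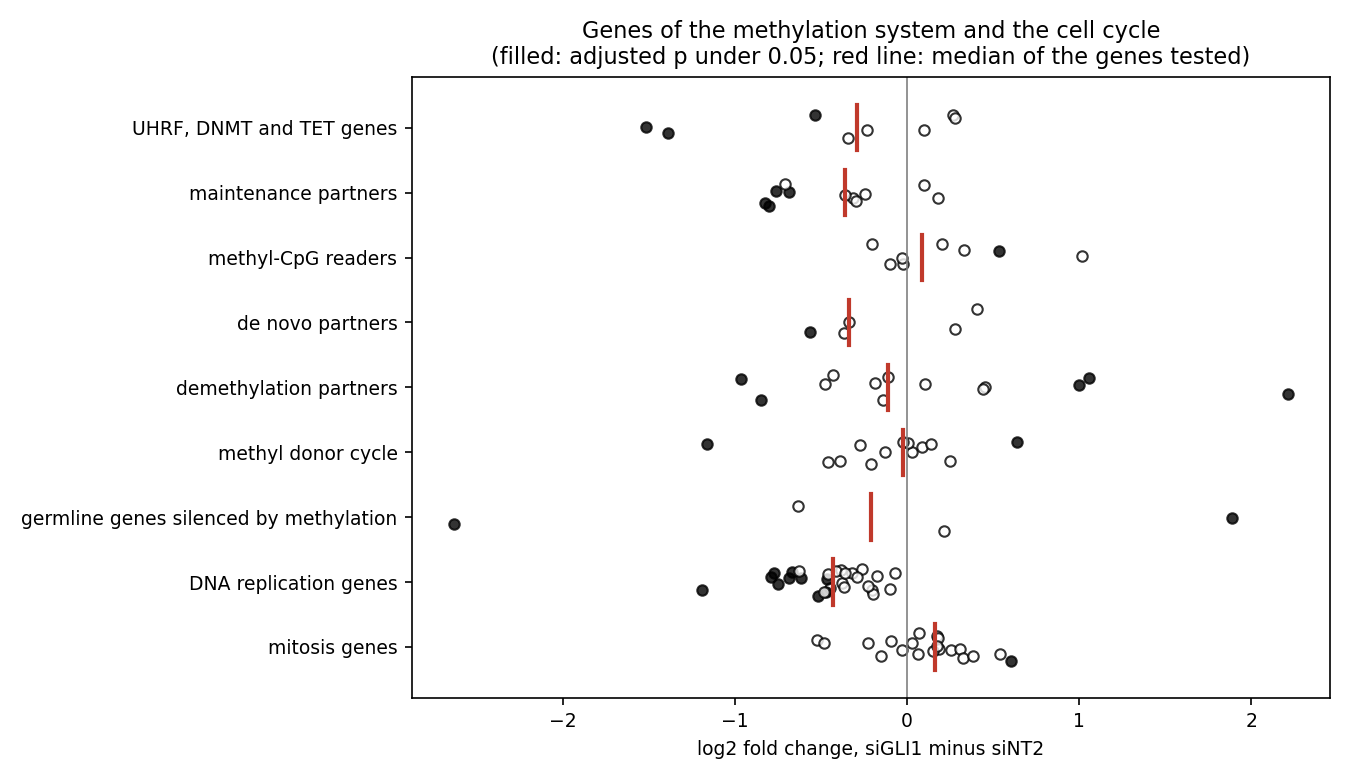
Log2 fold change, siGLI1 minus siNT2 (horizontal axis), of each tested gene in the 8 members and 8 accompanying lists. Filled points passed an adjusted p of 0.05, and red lines mark the median of the genes tested. Medians are -0.29 for the members, -0.36 for maintenance partners, -0.43 for DNA replication genes and 0.16 for mitosis genes (-0.013 after the GC correction).

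The genes whose pattern was most like each called member were taken from 11134 named genes with a mean of 100 or more, by Pearson's r of log2 values over the 6 libraries. For UHRF1 they were TRIB2, MAPK10, ITGB3, VPS45 and GAB2, with r of 0.997 to 0.9999 and log2 fold changes of -4.43 (ITGB3) to -0.58 (VPS45). For DNMT3B they were MEX3D, ENC1, ASF1B, ZDHHC9 and SANBR, with r of 0.998 to 0.999 and fold changes of -1.70 (ENC1) to -0.67 (MEX3D). For UHRF2 they were DCUN1D4, MSANTD2, HDHD2, FAM111A and GMNN, with r of 0.996 to 0.998 and fold changes of -1.18 (DCUN1D4) to -0.41 (HDHD2). With 6 libraries in 2 groups, such values mostly describe a shared difference between groups.

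**Figure D5:**
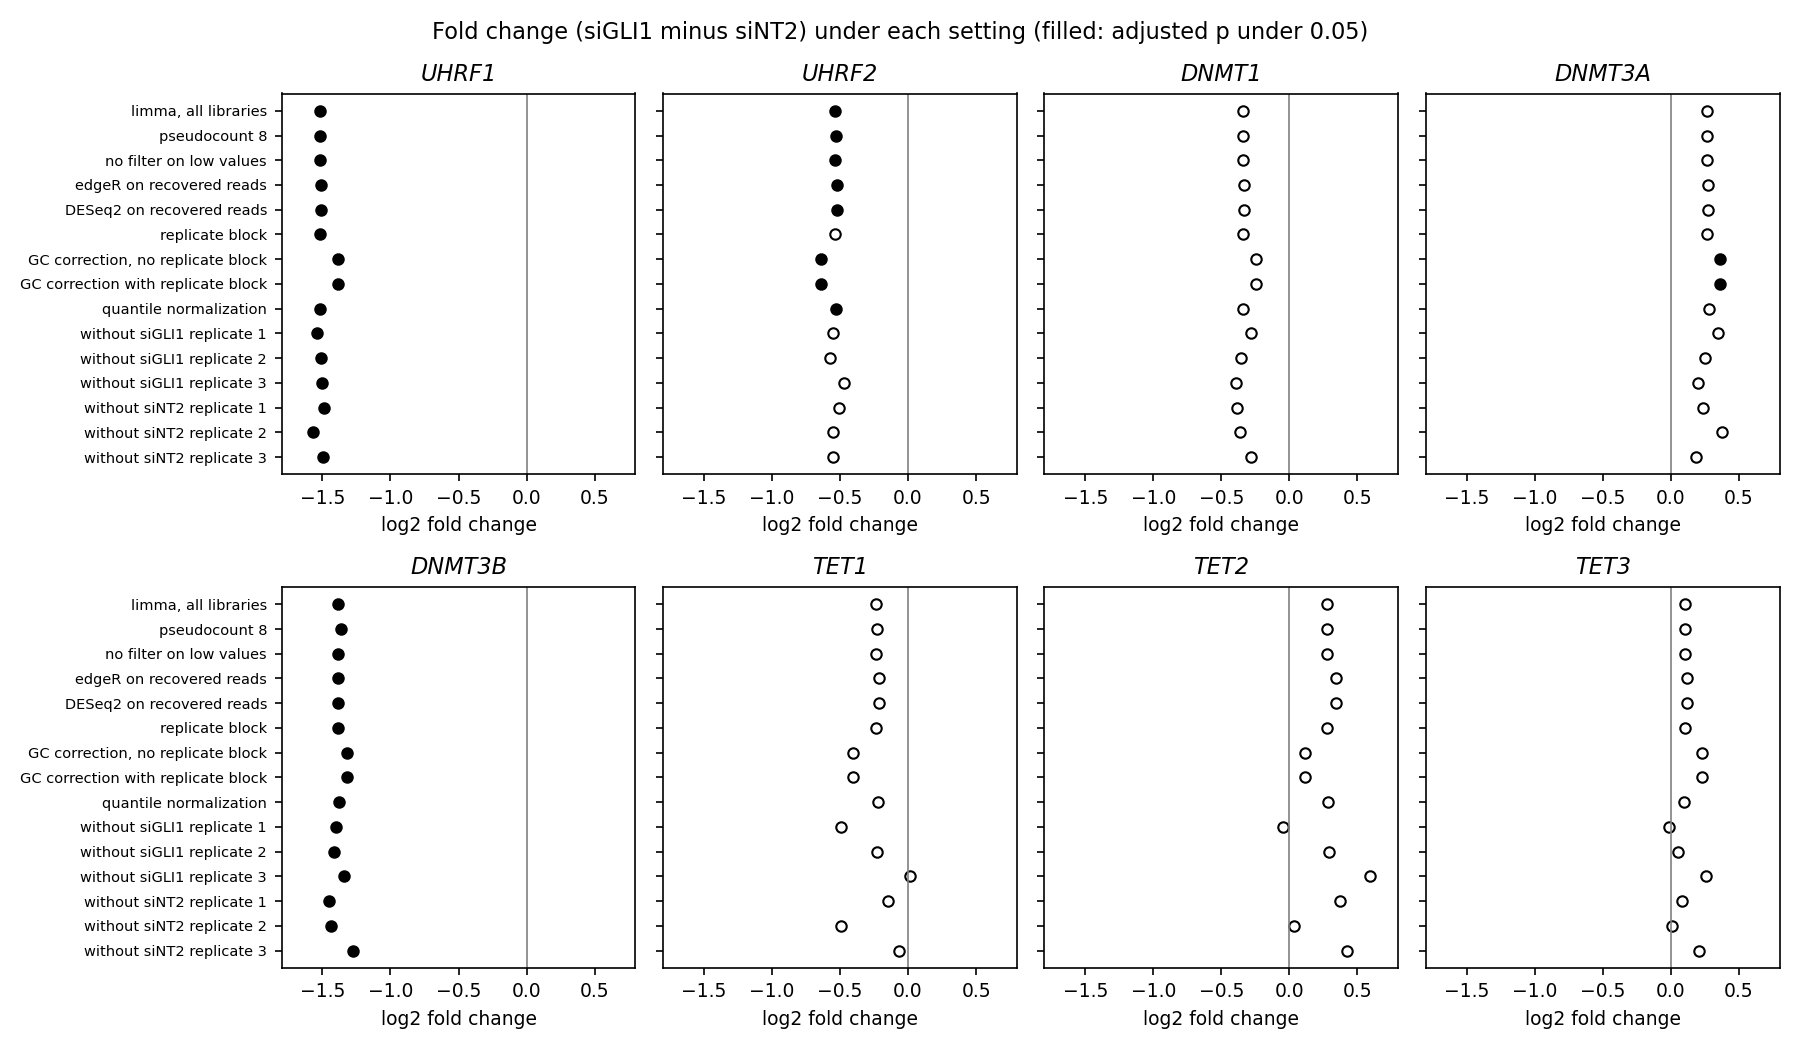
Log2 fold change of each gene (horizontal axes), siGLI1 minus siNT2, under the reported fit and 14 alternatives (rows). Filled points had an adjusted p under 0.05. UHRF1 and DNMT3B are filled in every row. UHRF2 is open in the 6 rows that leave out a library and with the replicate block alone, and filled in the GC correction rows. DNMT3A is filled with the GC correction alone or with the block.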

How the data were processed

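RNA from 6 libraries was sequenced, 3 of siGLI1 and 3 of siNT2 cells. The submitters' processing notes name Trim Galore 0.4.5, Bowtie2 2.3.3.1, featureCounts of Subread 1.6.4, DESeq2 2.11.40.6 and the build hg19. The handling of strand and of reads that match several places is not given in the sources used here, so COX20P1, which lies within TET1 (means 132.9 in siGLI1 and 234.5 in siNT2), leaves TET1 uncertain. The authors deposited signal values, read counts divided by 1 size factor per library. All values (100%) were whole multiples of 1 read within 0.01 reads, and the count test edgeR on these reads called 1182 genes higher and 1200 lower. A count of 0 allows 3 reads, 2.96 to 3.24 deposited units in siGLI1 and 2.39 to 3.29 in siNT2, for counting error only.

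Symbols for 23696 of 25702 Entrez numbers came from RefSeq (GRCh38.p14). GC content, lengths and 3' UTRs came from GENCODE release 29 basic transcripts, with GC values for 92.4% of genes tested. The test was limma 3.58.1 (R 4.3.3) on log2(value + 1), with an eBayes trend and the group as the only term, for genes with a mean of 10 or more. Adjustment was Benjamini-Hochberg at 0.05. Alternatives were pseudocount 8, no filter, edgeR 4.0.16, DESeq2 1.42.0, quantile normalization, a replicate block, a GC correction (spline, 6 degrees of freedom) without and with the block, and leaving out each library. Ratios used exact permutation (scipy 1.17.1, Python 3.11.15). Scripts were tested on simulated data.

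The members, the lists and the tests were chosen with earlier results of these data known. Named genes are the 8 members, GLI1, up to 4 called genes per list with the smallest p, direct partners given by value, and the 5 genes most like each called member. E2F1, E2F2, CCNE1, CCNE2 and CHAF1A are named besides, to describe the replication list. No pair of replicates agreed within sampling noise.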

Additional observations from a re-analysis of the deposited data

How the results depend on the processing

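UHRF1, DNMT3B and GLI1 kept direction and call in all 14 alternatives. UHRF2 kept its direction, but its call was lost with the replicate block alone (-0.53, adjusted p = 0.141) and without each single library (-0.58 to -0.47). With the GC correction UHRF2 was called lower at -0.64, both without the block (adjusted p = 0.0032) and with it (adjusted p = 0.0143). DNMT3A was called higher with the GC correction, without or with the block (0.36 in both), so 1 member was then higher. TET1 reached 0.012 without siGLI1 replicate 3, and TET2 and TET3 reached -0.049 and -0.012 without siGLI1 replicate 1. The ranges without single libraries were -0.49 to 0.012 for TET1, -0.049 to 0.59 for TET2 and -0.012 to 0.26 for TET3. The TET3 to TET2 difference was 0.11 with the GC correction and -0.33 to 0.037 without single libraries. TDG was at -0.025 and IDH2 at 0.0079 with the GC correction, without or with the block. Without single libraries TDG ranged from -0.013 to 0.30 and OGT from -0.28 to 0.0068.

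Over all genes, 1127 were higher and 1249 lower. There were 462 higher and 508 lower with the replicate block, 2396 and 2539 with the GC correction, 1849 and 1977 with both, and 283 to 1562 and 358 to 1705 without single libraries. In the accompanying lists 7 genes were called higher and 18 lower, each gene counted once. The counts were 3 and 6 with the block, 13 and 36 with the GC correction, 31 lower with both, and 3 to 8 and 6 to 22 without single libraries. Counts of all genes moved by over 1.5 times without any 1 library but siGLI1 replicate 3, and the lists' counts without siGLI1 replicate 2, siNT2 replicate 1 or siNT2 replicate 3. Same-numbered libraries of both groups share a code in their descriptions, whose meaning the labels do not give. Their deviations from the group means correlated across genes at 0.494, -0.109 and -0.614 for replicates 1, 2 and 3. Differently numbered libraries reached 0.755 (siGLI1 replicate 3 with siNT2 replicate 2) and 0.574 (siGLI1 replicate 1 with siNT2 replicate 3). After the GC correction the same-numbered values were 0.346, 0.0156 and -0.404. Such correlations cannot decide whether the codes mark pairs, because the libraries also differed along GC content. No label states a shared culture or day, so the numbers were not taken as pairs in the reported fit. The cause of these shifts was not tested.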
